A study of Mus musculus with 6 samples.

Results

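The constant region genes of the immunoglobulins, 10 of the 54532 genes in the deposited table, were followed in RNA-seq libraries of mouse bone marrow. They were picked by gene name as Ighm, Ighd, Ighg1, Ighg2b, Ighg2c, Ighg3 and Igha for the heavy chains and Igkc, Iglc1 and Iglc2 for the light chains. All 10 passed the filter on low counts. The unloaded group held 3 libraries from wild-type mice kept for 4 weeks under hindlimb unloading, in which the hind limbs bear no weight, which the study used to induce osteoporosis. The control group held 3 libraries from wild-type mice that were not unloaded. Both groups were marrow cells taken fresh from the femur. The labels give no strain, age or sex and do not state that each library is its own animal. The p-values therefore measure the spread between these libraries, which may be technical.

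An antibody is built from heavy and light chains, and the constant region of the heavy chain sets its class. Mature naive B cells make Ighm and Ighd from a single primary transcript, and class switch recombination later joins the rearranged variable segment to a gamma, epsilon or alpha constant gene. Marrow holds both B-cell precursors and long-lived plasma cells, and a plasma cell carries far more immunoglobulin mRNA than a B cell. In bulk RNA, fewer cells of a type and less RNA per cell cannot be told apart.

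The 7 heavy chain members lie on the minus strand of mm10 chromosome 12 in the order in which switching reaches them. They run from Ighm (ENSMUSG00000076617, 113418558 to 113422730) through Ighd, Ighg3, Ighg1, Ighg2b and Ighg2c to Igha (ENSMUSG00000095079, 113254830 to 113260236). Igkc (ENSMUSG00000076609, 70726435 to 70726966, plus strand) is on chromosome 6. Iglc1 (19061618 to 19062071) and Iglc2 (19198396 to 19200351) are on the minus strand of chromosome 16. The deposited coordinates of all 10 equalled those of GENCODE M21 on the same build.

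The results turn on counts that must be told apart between similar genes, so the first 120 bases of the first constant exon of the 4 IgG genes are shown from GENCODE M21, read from mm10 chromosome 12, minus strand, in lower case with the 39 positions that differ among them in capitals.
Ighg1 (chr12:113330404-113330523): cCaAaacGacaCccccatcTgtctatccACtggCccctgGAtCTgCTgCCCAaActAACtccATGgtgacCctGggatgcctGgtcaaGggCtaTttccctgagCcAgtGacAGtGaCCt
Ighg2b (chr12:113307814-113307933): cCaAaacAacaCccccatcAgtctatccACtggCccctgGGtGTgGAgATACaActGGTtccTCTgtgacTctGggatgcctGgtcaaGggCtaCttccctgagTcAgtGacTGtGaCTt
Ighg2c (chr12:113288813-113288932): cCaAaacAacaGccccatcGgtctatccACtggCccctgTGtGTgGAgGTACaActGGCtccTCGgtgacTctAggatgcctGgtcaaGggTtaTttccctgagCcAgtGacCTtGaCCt
Ighg3 (chr12:113361113-113361232): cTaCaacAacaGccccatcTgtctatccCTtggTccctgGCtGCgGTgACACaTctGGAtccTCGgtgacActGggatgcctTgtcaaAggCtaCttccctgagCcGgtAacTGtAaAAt

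Over that whole exon of 291 bases, Ighg1, Ighg2b and Ighg2c were 87.6% to 88.3% identical to each other, and Ighg3 was 78.4% to 79.0% identical to them. Of windows of 50 bases along the annotated transcripts, 0.393% of those in Ighg1, 4.15% in Ighg2b, 5.49% in Ighg2c and 1.58% in Ighg3 were also found in another gene. No window of 100 bases was shared by any member. The length of the sequenced reads is not given in the sources used here.

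The lambda constant exons are shown in the same way, from mm10 chromosome 16, minus strand, since Iglc2 has a close copy, Iglc3. The 30 positions that differ among the 3 genes are in capitals.
Iglc1 (chr16:19061952-19062071): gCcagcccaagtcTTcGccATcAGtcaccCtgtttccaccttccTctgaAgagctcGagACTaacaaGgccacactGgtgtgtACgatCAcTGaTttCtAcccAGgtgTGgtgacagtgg
Iglc2 (chr16:19198733-19198852): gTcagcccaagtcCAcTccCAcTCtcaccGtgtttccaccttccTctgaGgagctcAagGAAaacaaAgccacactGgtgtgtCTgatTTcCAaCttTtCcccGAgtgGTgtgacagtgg
Iglc3 (chr16:19065562-19065681): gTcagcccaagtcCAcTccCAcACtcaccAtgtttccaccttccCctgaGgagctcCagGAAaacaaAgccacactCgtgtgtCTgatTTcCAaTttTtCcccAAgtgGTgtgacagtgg

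Over these 120 bases Iglc2 and Iglc3 were 94.2% identical, against 76.7% for Iglc1 and Iglc2, and 7.65% of the windows of 50 bases in Iglc2 also occur in Iglc3, so the split of reads between this pair is less certain than for Iglc1. Igkc overlaps the noncoding gene Gm30211 on the same strand, which had at most 188 counts. Iglc1 overlaps the antisense gene 2010309G21Rik, which had at most 16 counts.

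Libraries held 15850986 to 17775506 counts, and levels are given as CPM, read counts scaled to a common library total. A gene without a read could be present at up to 3 counts, or 0.169 to 0.189 CPM. That limit and the intervals below cover counting error only. All marker genes checked for neutrophils, B cells, plasma cells, T cells, erythroid cells, monocytes and megakaryocytes had counts in every library. The 4 erythroid markers summed to 3969 to 5298 CPM in the unloaded libraries and to 3125 to 3814 CPM in the control libraries, without overlap, while the sums of the other 6 cell types overlapped. The unloaded 1 library stood apart. Its first principal component score was 51.3, with the others between -13.7 and -7.37, and mitochondrial transcripts made up 0.439% of its counts, against 1.05% to 1.27% in the others. Without it, log2 fold changes were -0.35 for Ighm, 0.10 for Ighd, 0.17 for Ighg3, 0.21 for Igha, -0.18 for Iglc1 and -0.26 for Iglc2, and those of the other 4 members stand beside their values below.

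The 10 members together made up 0.599%, 0.542% and 0.348% of all counts in the 3 unloaded libraries, against 0.386%, 0.577% and 0.429% in the 3 control libraries. Means were 0.496% ± 0.132 in unloaded and 0.464% ± 0.0998 in control marrow (SD, n = 3 each; two-sided exact permutation p = 0.9, where 0.1 is the smallest that 3 against 3 allows). The groups overlapped, and the highest and the lowest library were both unloaded. The 95% Wilson interval of such a share was at most 0.0038 percentage points to either side, so the differences between libraries exceeded counting error. Without unloaded 1 the difference between unloaded and control marrow was -0.0194 percentage points in place of 0.0322.

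Levels of different genes were compared as CPM per kb of the deposited gene length, after TMM normalization. TMM is edgeR's scaling of library totals. Igkc had the highest level, with a mean of 2037 CPM per kb over the 6 libraries, followed by Ighm at 892 and Igha at 504. The highest library of Ighm, at 1525, exceeded the lowest of Igkc, at 1457, and the ranges of Ighm and Igha overlapped. Ighg2c at 125, Iglc1 at 124 and Ighg2b at 106 CPM per kb formed a middle group whose ranges overlapped, and all their libraries lay below every Igha library. Ighd at 47.6 and Iglc2 at 46.6 CPM per kb overlapped as well, and the highest Iglc2 library, at 75.4, reached the lowest of Ighg2c and Iglc1. Ighg1 at 15.3 and Ighg3 at 9.85 CPM per kb had the lowest means. The deposited length counts exons of membrane and secreted forms together and was 1.19 to 2.43 times the shortest annotated constant transcript of the heavy chain genes, so this order depends on the length used.

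**Figure D1:**
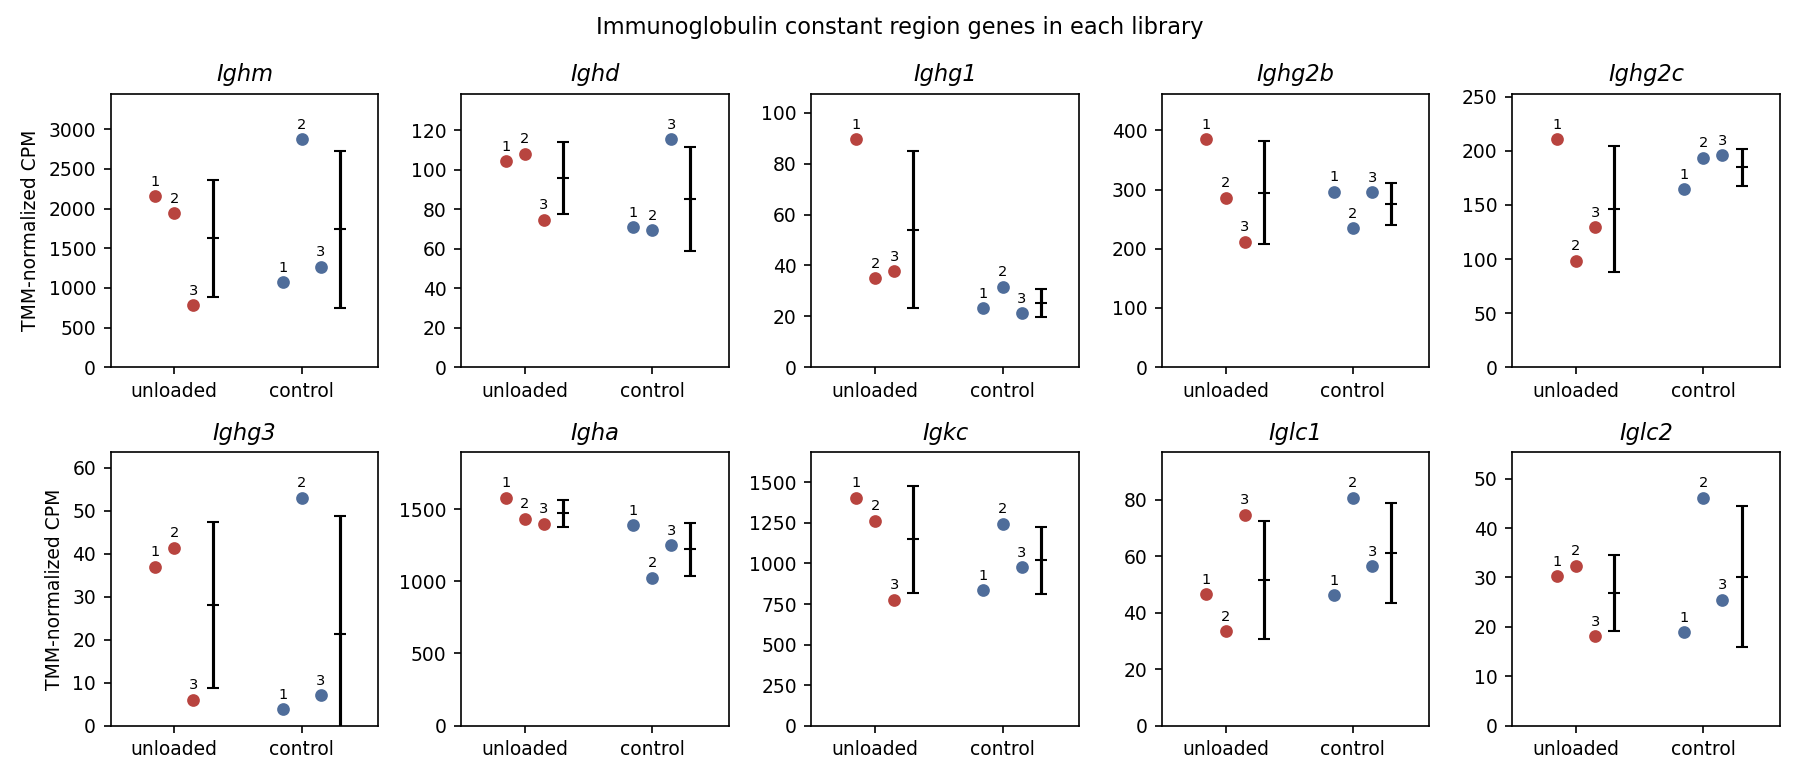
TMM-normalized CPM (y axis, linear, from 0) of each constant region gene in the unloaded and control libraries. Points are libraries with their replicate number, and the bar to the right of each group is the mean ± SD (n = 3, cut at 0 for Ighg3). Ighg1 and Igha were higher in every unloaded library than in any control library, and Ighm and Ighg3 were high in unloaded 1, unloaded 2 and control 2.

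Unloaded and control marrow were compared to ask which antibody classes differ after 4 weeks without weight bearing. By edgeR's quasi-likelihood test, adjusted over 15015 genes, 0 of the 10 members passed, as did 0% of all genes tested. At an unadjusted p under 0.05 there was 1 member, Ighg1, while 5.85% of all genes tested met that limit by the same edgeR test. Fold changes were positive for 6 members and negative for 4, with a median log2 fold change of 0.13, against 0.0054 over all genes tested. Of those genes 7682 were positive and 7333 negative. DESeq2 called 35 genes, of which 0 were members. In 2 members, Ighg1 and Igha, all unloaded libraries lay above all control libraries, and in 0 they lay below. Over all genes tested these shares were 5.46% above and 6.4% below, and 11.9% in either direction.

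Ighg1, the constant gene of IgG1, had 89.6, 34.9 and 37.7 CPM in the unloaded libraries, from 1409, 594 and 611 counts. The control libraries had 23.1, 31.7 and 21.1 CPM, from 404, 526 and 360 counts. Every unloaded library was above every control library, although unloaded 2 and control 2 lay close, and unloaded 1 was more than the other unloaded libraries together. Ighg1 had a log2 fold change of 1.10 ± 0.32 (SE; edgeR unadjusted p = 0.00593, adjusted p = 0.718), and it ranked 124 of 15015 genes by p. Leaving out unloaded 1 gave 0.52 (edgeR adjusted p = 0.362). With any other library left out it was 0.98 to 1.33. With no filter on low counts edgeR gave an adjusted p of 1.71e-10 and called 183 genes, while the adjusted p was 0.301 or more under the other 14 settings.

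Igha encodes the constant region of IgA, the class secreted at mucosal surfaces. It was at 1579, 1432 and 1397 CPM in the unloaded libraries, against 1388, 1026 and 1251 CPM in the control libraries. The lowest unloaded library and the highest control library differed by less than the spread within either group. Igha had a log2 fold change of 0.27 ± 0.13 (SE; edgeR adjusted p = 0.865), which was 0.15 to 0.37 with each library left out. Of the members, Igha varied least, with a 1.54-fold range over the 6 libraries.

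Ighm and Ighg3 varied between libraries more than between groups. Ighm, which encodes the constant region of IgM, was at 2155, 1938 and 782 CPM in the unloaded libraries and at 1075, 2876 and 1264 CPM in the control libraries. Unloaded 3 was the lowest of all and control 2 the highest. The log2 fold change was -0.10 ± 0.40 (SE; edgeR adjusted p = 0.979), and it was 0.47 without control 2 and 0.23 without unloaded 3. Ighg3, the constant gene of IgG3, a class often made against carbohydrate antigens without T cell help, was at 37.0, 41.5 and 6.04 CPM in the unloaded libraries and at 3.83, 53.1 and 7.04 CPM in the control libraries. Its log2 fold change was 0.41 ± 0.83 (SE; edgeR adjusted p = 0.962), and it was 2.37 without control 2 and -0.092 without control 1.

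The highest library of Ighg3 was 13.9 times the lowest, which ranked 4 among the 9264 genes with a mean of at least 10 CPM. The ratio was 3.68 for Ighm, at rank 37, and 4.25 for Ighg1, at rank 29. The median ratio over those 9264 genes was 1.35, and the other 7 members ranged from 1.54 to 2.56. The 3 highest libraries of Ighm, Ighg3, Igkc and Iglc2 were the same, namely unloaded 1, unloaded 2 and control 2. These were also the 3 with the most reads on heavy chain variable segments, at 5815, 6938 and 7731 counts, against 3721 in unloaded 3, 4959 in control 1 and 5050 in control 3. Those reads were spread over 92 to 99 segments per library, and the leading segment took 6.88% to 8.84% of them. The 5 plasma cell markers, all detected throughout, summed to 563, 607 and 638 CPM in those 3 libraries and to 498 to 530 CPM in the others, but did not follow that order singly. Unloaded 1 had the highest Xbp1, at 264 CPM, and the lowest Jchain and Sdc1, at 267 and 9.67 CPM. The 4 B-lineage markers summed to 541, 485 and 357 CPM in the unloaded libraries and to 500, 466 and 547 CPM in the control libraries, in another order. The part of either cell type in the Ighm and Ighg3 values was not tested.

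Ighd, whose transcript is made by mature naive B cells together with that of Ighm, did not follow this order. It was at 104, 108 and 74.6 CPM in the unloaded libraries and at 70.7, 69.4 and 115 CPM in the control libraries, so that both groups held high and low libraries. The log2 fold change was 0.17 ± 0.20 (SE; edgeR adjusted p = 0.934). Per kb, the log2 ratio of Ighd to Ighm was -4.38, -4.18 and -3.40 in the unloaded libraries, against -3.94, -5.38 and -3.46 in the control libraries. Means were -3.98 ± 0.52 and -4.26 ± 1.00 (SD, n = 3 each; two-sided exact permutation p = 0.8). The difference of 0.28 was -0.28 without control 2 and 0.47 without unloaded 1.

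Ighg2b and Ighg2c supply most IgG transcripts. Ighg2b was at 385, 286 and 212 CPM in the unloaded libraries and at 296, 235 and 296 CPM in the control libraries, with unloaded libraries at both ends of the range. Its log2 fold change was 0.09 ± 0.19 (SE; edgeR adjusted p = 0.961), or -0.15 without unloaded 1. Ighg2c was at 211, 98.5 and 130 CPM in the unloaded libraries and at 164, 194 and 196 CPM in the control libraries. Unloaded 2 and unloaded 3 were below all controls, and unloaded 1 was above them. The log2 fold change of Ighg2c was -0.34 ± 0.22 (SE; edgeR adjusted p = 0.896), and it was -0.70 without unloaded 1 (edgeR adjusted p = 0.116) and -0.12 without unloaded 2.

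**Figure D2:**
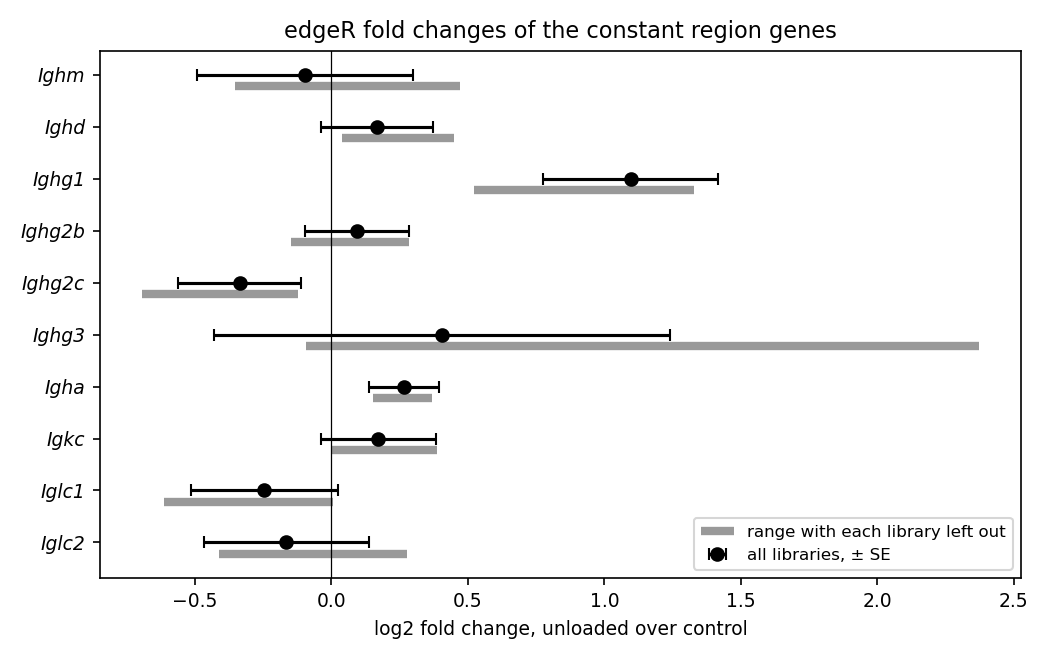
Log2 fold changes (x axis, unloaded over control) of the 10 constant region genes. Points are edgeR estimates with all 6 libraries and error bars are ± SE, and grey bars span the estimates with each library left out in turn. Ighg1 stood at 1.10, and the grey bar of Ighg3 ran from -0.092 to 2.37.

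Isotype shares were computed within each library, from reads per kb, so that they do not depend on the library's scaling. Among the 7 heavy chain genes, Ighm took 53.3%, 56.1% and 35.4% in the unloaded libraries and 41.5%, 68.9% and 45.6% in the control libraries. Igha took 27.6%, 29.3% and 44.7% in the unloaded libraries and 37.9%, 17.4% and 31.9% in the control libraries. Where the share of Ighm was high that of Igha was low, as parts of 1 whole. The Igha share averaged 33.9% ± 9.42 in unloaded and 29.1% ± 10.6 in control marrow (SD, n = 3 each; two-sided exact permutation p = 0.6).

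The IgG share was 16.4%, 11.5% and 16.5% in the unloaded libraries and 17.9%, 12.1% and 18.3% in the control libraries. Its means were 14.8% ± 2.87 and 16.1% ± 3.48 (SD, n = 3 each; two-sided exact permutation p = 0.5). All switched classes together took 48.7% ± 11.0 of heavy chain reads per kb in unloaded and 45.1% ± 13.9 in control marrow (SD, n = 3 each; two-sided exact permutation p = 0.9). The difference of 3.57 percentage points was -4.28 without control 2 and -2.70 without unloaded 3. Leaving out unloaded 1 gave a difference of 5.89 points in the switched share, 7.94 points in the Igha share and -2.05 points in the IgG share. The groups overlapped in all 3 of these shares. Their size depends on the length used. On the shortest transcripts, a length chosen after the data were seen, the switched share averaged 61.3% in unloaded and 56.9% in control marrow. The Ighm share then averaged 34.7% and 39.3%, below the Igha share at 45.8% and 40.5%. This order did not hold in every library. Ighm was above Igha in control 2, at 56.5% against 27.4%, and in unloaded 1, at 39.4% against 39.2%. Of read counts without length, a share of 1 gene among the heavy chain constants had a 95% Wilson interval of at most 0.473 percentage points to either side.

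**Figure D3:**
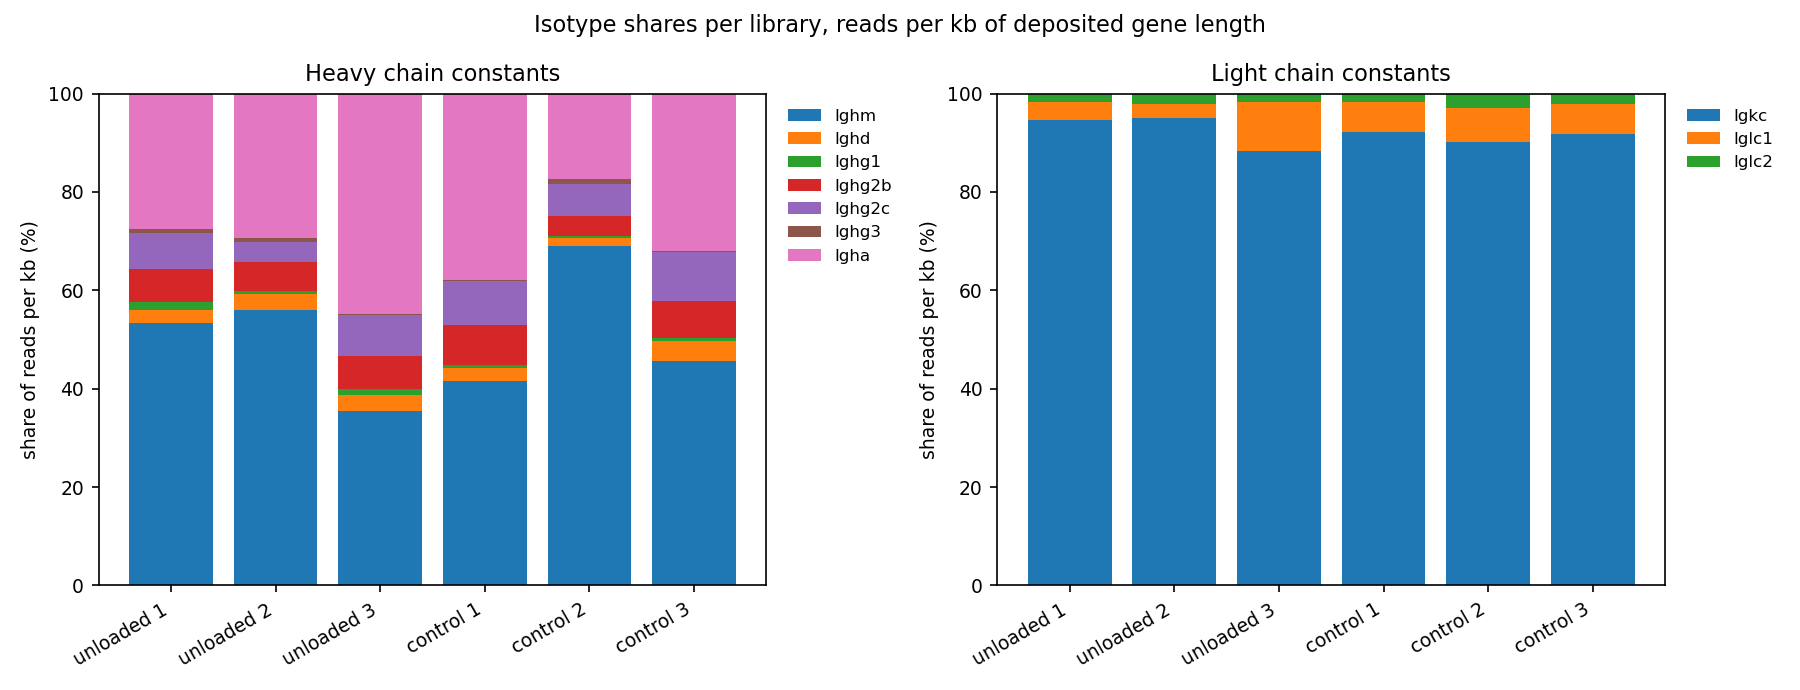
Shares of heavy chain (left) and light chain (right) constant genes in each library, in percent of reads per kb of deposited gene length (y axis, 0 to 100). Bars are single libraries, unloaded before control. Ighm ran from 35.4% in unloaded 3 to 68.9% in control 2, and Igkc took 88.3% to 94.9% of light chain reads per kb.

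Among the 4 IgG genes, Ighg1 made up 9.82%, 6.38% and 7.50% of reads per kb in the unloaded libraries and 3.63%, 4.57% and 3.03% in the control libraries. All unloaded libraries were above all control libraries, on read counts and on the length of the shortest transcript too. These shares rest on the same Ighg1 counts as its CPM, so they are no separate check. By CPM, 5.46% of all genes tested lay above in this way. Ighg2c made up 45.2%, 35.2% and 50.5% in the unloaded libraries and 50.6%, 54.7% and 54.9% in the control libraries. The unloaded libraries were all below, but unloaded 3 and control 1 nearly touched. By CPM, where the groups overlapped for Ighg2c, 6.4% of all genes tested lay below in this way. The subclass shares are parts of 1 whole, so that of Ighg2c is no separate check on that of Ighg1. Ighg2b, at 40.8%, 50.6% and 40.8% in unloaded and 45.1%, 32.8% and 41.1% in control libraries, overlapped between the groups. Ighg3 made up 4.18%, 7.82% and 1.24% in the unloaded libraries and 0.621%, 7.91% and 1.04% in the control libraries. These subclass shares were computed after the single-gene values were seen and carry no test. Reads per kb of the shortest transcript put Ighg2b first among the subclasses, at 56.5% in unloaded and 54.3% in control marrow, and Ighg2c at 28.0% and 36.3%.

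**Figure D4:**
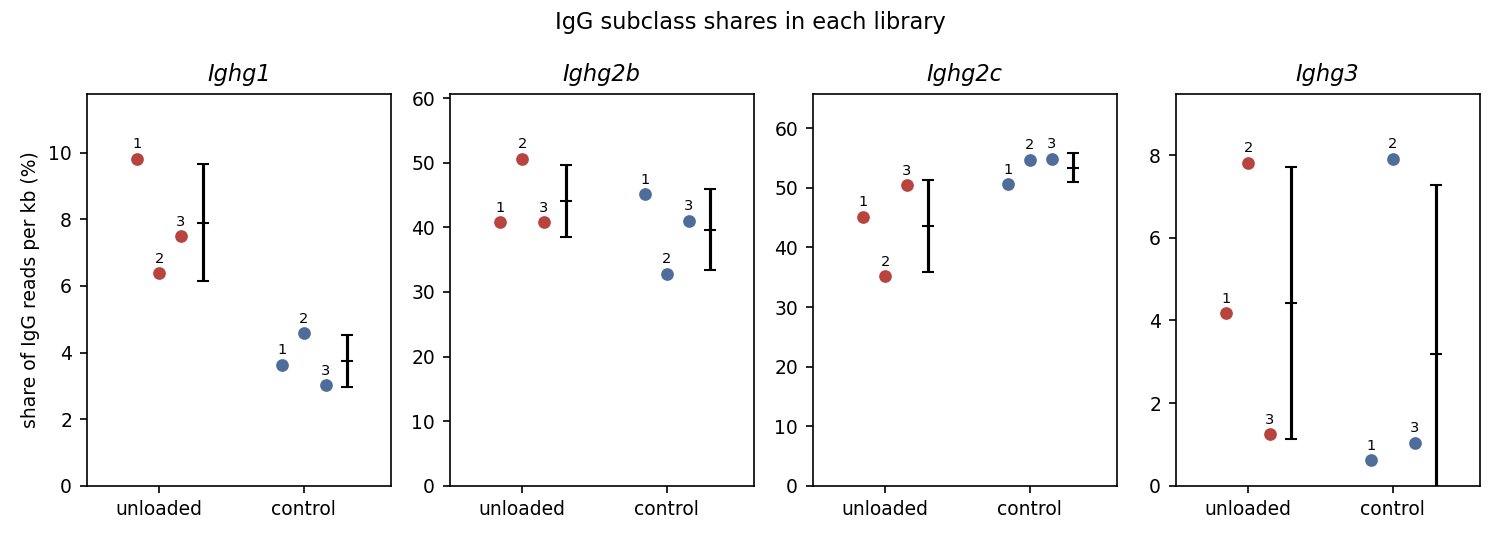
Share of each subclass among the 4 IgG constant genes (y axis, percent of reads per kb, from 0) in unloaded and control libraries. Points are libraries with their replicate number, and bars are mean ± SD (n = 3, cut at 0 for Ighg3). The unloaded libraries lay above the control libraries for Ighg1, at 6.38% to 9.82% against 3.03% to 4.57%.

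Of the light chains, kappa dominates in the mouse, and lambda chains are few. Igkc was at 1406, 1264 and 775 CPM in the unloaded libraries and at 836, 1246 and 976 CPM in the control libraries. Unloaded 3 was the lowest and unloaded 1 the highest, and the log2 fold change was 0.17 ± 0.21 (SE; edgeR adjusted p = 0.935), or 0.00080 without unloaded 1. Kappa took 94.6%, 94.9% and 88.3% of light chain reads per kb in the unloaded libraries and 92.2%, 90.2% and 91.7% in the control libraries. Means were 92.6% ± 3.75 and 91.4% ± 1.03 (SD, n = 3 each; two-sided exact permutation p = 0.6). Leaving out unloaded 1 gave a difference of 0.210 percentage points. The 6 tests of shares and ratios above all had a Benjamini-Hochberg adjusted p of 0.9.

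The lambda genes did not order the libraries alike. Iglc1, which is mostly joined to the variable segment Iglv1, was at 46.5, 33.5 and 74.6 CPM in the unloaded libraries and at 46.2, 80.7 and 56.3 CPM in the control libraries. Its log2 fold change was -0.25 ± 0.27 (SE; edgeR adjusted p = 0.930), or 0.0061 without control 2. Iglc2, which is mostly joined to Iglv2, was at 30.3, 32.3 and 18.1 CPM in the unloaded libraries and at 18.9, 46.2 and 25.5 CPM in the control libraries. The log2 fold change of Iglc2 was -0.17 ± 0.30 (SE; edgeR adjusted p = 0.958), or 0.28 without control 2. Unloaded 3 had the lowest Iglc2, though close to control 1, and, of the unloaded libraries, the highest Iglc1. Iglc1 made up 9.95% of its light chain reads per kb, against 3.67% and 2.95% in unloaded 1 and unloaded 2, and against 5.97% to 6.85% in the control libraries. Iglv1 was also highest in unloaded 3, where it took 83.1% of lambda variable reads. It took 70.7% and 64.4% in unloaded 1 and unloaded 2, and 66.8% to 80.9% in the control libraries. Iglv2 was not lowest in unloaded 3. Its counts were 133, 112 and 113 in the unloaded libraries and 76, 294 and 59 in the control libraries.

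Of the constant genes outside the 10, Iglc3 had 152, 275 and 222 counts in the unloaded libraries and 182, 179 and 189 counts in the control libraries, a log2 fold change of 0.29 ± 0.20 (SE; edgeR adjusted p = 0.896). Ighe, the constant gene of IgE, had 3, 4 and 1 counts in the unloaded libraries and 0, 4 and 0 counts in the control libraries, too few to test. Iglc4 had at most 3 counts in any library, and the pseudogene Gm37944 had 0 in all.

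Genes that act with the constant regions were followed as 6 lists. In each, 0 members passed edgeR's test over all genes in either direction, so the values are given without a call. The erythroid markers were higher in every unloaded library, as given above, and their part in the list values was not tested. Without unloaded 1, 0 list members passed as well. The median log2 fold change was then -0.053 for the plasma cell list, -0.27 for mature B cells, -0.26 for pro-B and pre-B cells, -0.014 for class switching, -0.13 for Fc receptors and 0.072 for IgM-IgD processing, where 3 of 10 were negative. Of 17 plasma cell genes tested 10 were lower in unloaded marrow on average, and the median log2 fold change was -0.10. Jchain, which joins IgM and IgA into polymers, was at 267, 372 and 291 CPM in the unloaded libraries and at 270, 372 and 284 CPM in the control libraries. The 3 with the smallest p were Pou2af1, a transcriptional coactivator of B cells, at a log2 fold change of -0.45 ± 0.12, Irf4, a transcription factor of plasma cells, at -0.52 ± 0.15, and Sdc1, the plasma cell surface proteoglycan CD138, at -0.61 ± 0.21. In all 3, which were picked by their p, the unloaded libraries lay below the control libraries. Of the 17 plasma cell genes tested 3 lay so, against 6.4% of all genes tested. In the pro-B and pre-B cell list 6 of 15 lay so, and in each of the other lists 1 did. In every list 0 genes lay above, against 5.46% of all genes tested. The edgeR adjusted p of Pou2af1, Irf4 and Sdc1 was 0.600, 0.724 and 0.801.

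Of 17 mature B cell genes 11 were negative, with a median log2 fold change of -0.13, and Cd79b, a signalling chain of the B cell receptor, was at -0.23 ± 0.14 (SE), or -0.34 without unloaded 1. Tnfrsf13c, the receptor for the survival factor BAFF, was at -0.52 ± 0.18, Ebf1 at -0.40 ± 0.15 and Pax5 at -0.47 ± 0.18. Ebf1 and Pax5 are transcription factors of the B lineage. Of 15 pro-B and pre-B cell genes 12 were negative, with a median of -0.21, led by Vpreb3 at -0.74 ± 0.14, Bach2 at -0.69 ± 0.13 and the recombinase gene Rag1 at -0.66 ± 0.19. Their edgeR adjusted p was 0.313 for Vpreb3 and Bach2 and 0.683 for Rag1. Of the 10 constant genes 6 had positive fold changes, and of the 15015 genes tested 7682 were positive and 7333 negative.

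Of 17 tested genes of class switching and hypermutation 13 were negative, with a median log2 fold change of -0.07. Lig4, a ligase of DNA end joining, was at -0.41 ± 0.15 (SE; edgeR adjusted p = 0.802), Hmces at 0.20 ± 0.15 and Xrcc6, the Ku70 subunit of the same pathway, at -0.14 ± 0.11. Genes of IgM-IgD processing and of the choice of the secretory poly(A) site had a median of -0.02, with 6 of 10 negative. Zfp318, which permits Ighd expression, was at -0.0031 ± 0.20, or -0.14 without unloaded 1, and the elongation factor Ell2 was at 0.062 ± 0.14, or 0.21 without it. The 3 with the smallest p were the poly(A) factors Pcf11 at -0.16 ± 0.10 and Cstf1 at 0.07 ± 0.10, and Hnrnpf at 0.07 ± 0.12.

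Of 11 tested receptors and transporters that bind constant regions 7 were negative, with a median log2 fold change of -0.05. Fcgr1, the high-affinity IgG receptor of myeloid cells, was at 29.1, 10.5 and 16.3 CPM in the unloaded libraries and at 10.2, 12.7 and 10.6 CPM in the control libraries, with unloaded 1 far above the rest (log2 0.74 ± 0.30; edgeR adjusted p = 0.805; 0.27 without unloaded 1). Fcer1a, the IgE receptor chain of mast cells and basophils, had a log2 fold change of -0.47 ± 0.18, and Trim21, a cytosolic IgG receptor, -0.10 ± 0.13. Fcmr, the IgM receptor, was at 53.8, 47.0 and 30.8 CPM in the unloaded libraries and at 43.4, 37.2 and 47.1 CPM in the control libraries, and thus was not highest where Ighm was.

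Genes whose log2 CPM followed a member most closely over the 6 libraries were searched among 9233 genes outside the immunoglobulin classes, by Pearson's r and as a description only. Each r rests on 6 libraries, of which unloaded 1 stood apart. For Ighm they were Arl4c, Gm45855 and Abracl (r of 0.965 to 0.969), and for Ighd AU020206, Pcyt1b and Traf5 (0.967 to 0.994). For Ighg1 they were Gle1, Plcb3 and Dnah14 (0.994 to 0.997), for Ighg2b Cdan1, Cxcr5 and Phf21a (0.988 to 0.995) and for Ighg2c Csrp1, Tifab and Rps6ka1 (0.970 to 0.986). For Ighg3 they were St6galnac6, Rpl38 and Rpl35 (0.964 to 0.989), and for Igha Daam1, Camsap1 and Vps13c (0.974 to 0.987). For Igkc they were Gm4332, Oraov1 and Ap4m1 (0.974 to 0.995), for Iglc1 Psph, Dcun1d5 and Extl2 (0.965 to 0.979) and for Iglc2 Dpm3, Fzr1 and Anapc13 (0.948 to 0.976).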

How the data were processed

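Total RNA (TRNzol) went into NEBNext Ultra libraries, per the labels' protocols. Per the submitters' processing notes, the tools were CASAVA, HISAT2 2.0.5 and featureCounts 1.5.0-p3, on mm10. The strand setting and the handling of reads that map to several places are not stated in the sources used here. The deposited table holds raw read counts per gene, not normalized, with gene lengths and coordinates. Of 54532 genes, 27245 had no count. Genes were kept by edgeR's filterByExpr (15015 genes), scaled by TMM and tested with edgeR 4.0.16 (glmQLFit, glmQLFTest) in R 4.3.3. Adjustment was by Benjamini-Hochberg, with calls at 0.05. The SE is the log2 fold change over the square root of F. Shares were compared with exact permutation tests (SciPy 1.17.1). DESeq2 1.42.0 and limma 3.58.1 served as alternatives. On simulated counts for this comparison, run on 14710 genes, edgeR recovered 26.9% of genes set at 1.5-fold, 65.7% at 2-fold and 95.4% at 4-fold. Of the calls in that run, 10.8% were genes set at no change. Recovery for the 10 members, of which Ighg3, Ighg1 and Ighm were among the most variable genes, was not tested. Members, lists and tests were chosen with earlier results of these data known. Genes named were the members, the other constant genes, up to 3 genes per list with the smallest p, and 3 genes closest in pattern to each member. Others in the lists were named for their role after their values were seen. Chi-square per degree of freedom between libraries was 7.20 or more, so each counted once. Refitting the lists without unloaded 1 was added after the data were seen.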

Additional observations from a re-analysis of the deposited data

How the results depend on the processing

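Under 9 other fits with all libraries, 0 of the 10 members passed, except that with no filter on low counts 1 did, Ighg1, and the cause was not tested. Genes called over all genes numbered 0 in the reported fit, 35 by DESeq2, 8 by limma-voom with library weights, 183 with no filter and 0 by limma-voom. With each library left out, 0 to 5 genes and 0 members were called. Same-numbered libraries did not deviate together (correlations of 0.0309, -0.0633 and 0.0185), so the main fit used no pairing. With so few libraries and unloaded 1 apart, these values cannot exclude one. The replicate block gave 1 gene called and 0 members. Ighg2b was -0.064 on the log2 scale with library weights, against 0.09.

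With each library left out, the log2 fold change ran from -0.35 to 0.47 for Ighm, from -0.15 to 0.28 for Ighg2b, from -0.092 to 2.37 for Ighg3, from -0.61 to 0.0061 for Iglc1 and from -0.41 to 0.28 for Iglc2, while Ighd, Ighg1, Ighg2c, Igha and Igkc kept their sign. The difference in the share of all counts ran from -0.0194 to 0.106 percentage points, in the switched share from -4.28 to 8.88, in the IgA share from -1.03 to 9.24 and in the IgG share from -3.25 to 0.409. That in the log2 ratio of Ighd to Ighm ran from -0.28 to 0.67. The kappa share differed by 0.0211 to 3.36 percentage points. Read counts without length, other lengths or added constant genes turned no direction of a share. The IgA share in unloaded marrow was 33.9% on deposited lengths and 45.8% on the shortest transcripts, an alternative chosen after seeing the data.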
